A study of Mus musculus with 6 samples.

Results

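A set of 44 interferon-stimulated and antigen presentation genes was followed in RNA sequencing data from cultured mouse keratinocytes, the cells that build the epidermis, with and without interleukin-33 (IL-33). The genes were given as a list of symbols, drawn up with earlier results of these data known, and all 44 were found among the 52550 genes of the deposited table. The cells came from the skin epidermis of wild-type C57BL/6 mice aged 0 to 2 days, and all libraries share that strain, genotype and culture. After 2 days in culture the cells of 3 libraries stayed untreated, and those of the other 3 received the recombinant cytokine, which belongs to the IL-1 family, for 12 h, at a dose the labels do not give. No label says whether the replicates of a group came from separate cultures or litters, or how many animals were pooled, so each p-value reflects only how these libraries vary, and that variation may be technical.

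Type I and type II interferons act through the JAK-STAT pathway. Type I interferons assemble a complex that contains STAT2 and IRF9 and binds the interferon-stimulated response element, while interferon gamma acts through the gamma-activated site and induces IRF1. The induced genes encode sensors of viral RNA, antiviral effectors, GTPases that act on intracellular pathogens, and the machinery that cuts peptides and presents them on class I molecules of the major histocompatibility complex (MHC). Keratinocytes carry interferon receptors and present peptides on class I molecules, as most nucleated cells do.

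Expression of the set was unequal, and no member passed the test for a difference with IL-33. The class I light chain B2m, the antiviral membrane protein Ifitm3 and the class I heavy chains H2-D1 and H2-K1 were the most highly expressed, with mean levels of 25.2 to 75.1 FPKM over the 6 libraries (fragments per kilobase scaled to depth, a level that allows for gene length). At the other end, Oas2 and Iigp1 were listed at 0 in every library, and Mx1, Mx2, Ifi44 and Oasl2 did not exceed the floor in either group. In edgeR's quasi-likelihood test 0 of the 38 members that passed the filter on low counts changed at an adjusted p under 0.05, where 11 of 15778 tested genes did (0.0697%). The smallest adjusted p of a member was 0.509, for B2m (edgeR), and no member was called at an adjusted p under 0.1 either, or by DESeq2 or limma-voom.

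At an unadjusted p under 0.05, 4 of the 38 tested members were higher with IL-33 and 0 were lower. These were B2m, Igtp, Irf1 and Ifitm3. With each library left out in turn, B2m kept an unadjusted p of at most 0.0166 (edgeR). The p of Igtp went to 0.0518 without untreated replicate 1 and to 0.072 without IL-33 replicate 1. Irf1 and Ifitm3 each had a p above 0.05 when any of 4 libraries was left out, and reached at most 0.114 and 0.119. The 4 members with an unadjusted p under 0.05 make up 10.5% of the tested members. Of all tested genes 6.74% had such a p in either direction and 3.42% were higher. The 3 IL-33 libraries all lay above the 3 untreated libraries in 8 of the 38 tested members (21.1%), namely B2m, Igtp, Irf1, Ifit2, Ifit3, Psmb8, Rtp4 and Trim25. Of all tested genes 7.39% had that order. The opposite order was found in 0 of the 38 members and in 6.26% of all tested genes. Among the 8, Ifit3 and Rtp4 exceeded the floor only with IL-33. Their passing of the filter thus leaned on the group where they are high, so their order is no independent observation. Log2 fold changes (IL-33 minus untreated) were above 0 in 26 tested members and below 0 in 12, that is above 0 in 68.4% of them against 50.5% of all tested genes. Their median was 0.07, where that of all tested genes was 0.0018. Between libraries of a group, the members' median deviation from their group mean had an SD of 0.0495 on the log2 scale. The 38 tested members are those with enough counts to pass the filter, so these shares and the median describe them and not the whole set.

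Each library held between 34188173 and 45266298 deposited estimated counts, with IL-33 replicate 2 the shallowest. In the deposited table a value of 4 was taken as about 1 sequenced fragment, so the floor of 3 fragments is 12 deposited counts, or 0.265 to 0.351 CPM (counts scaled to library size). This floor covers counting error only. All 10 keratinocyte markers were detected, and 0 were called (edgeR). Itgb4 was lower with IL-33 without overlap (log2 fold change -0.23, edgeR adjusted p = 0.575). Krt5 was higher without overlap (log2 fold change 0.07, edgeR adjusted p = 0.75), and the other keratinocyte markers overlapped. Of 8 pan-leukocyte markers 7 had a count in at least 1 library, yet their summed level was 0.201 to 1.06 CPM in untreated and 0.44 to 1.27 CPM in IL-33 libraries. The T cell markers Cd3e, Cd3d and Cd3g, the Langerhans cell marker Cd207 and the macrophage marker C1qa were at 0 in all 6 libraries. Of the 7 T cell markers only Trac had a count, 4 in IL-33 replicate 1. Of the 8 Langerhans cell markers 6 had a count, and Epcam, at 141 to 166 CPM, made up most of their sum. Fibroblast markers, 8 of 8 with a count, summed to 36.1 to 45.1 CPM in untreated and 34.3 to 37.7 CPM in IL-33 libraries. Among them Col1a1 was at 12.7, 4.74 and 5.72 CPM untreated and 4.14, 2.41 and 3.6 CPM with IL-33, without overlap (edgeR adjusted p = 0.74). The other tested fibroblast markers overlapped between the groups. Their log2 fold changes were above 0 for Col3a1, Dcn, Pdgfra and Twist2 and below 0 for Col1a2 and Pdgfrb. Melanocyte markers summed to 1119 to 1219 CPM over the 6 libraries, so the cultures also held melanocyte transcripts. Suprabasal keratinocyte markers summed to 14.1 to 17.5 CPM. Among them Ivl was lower without overlap (log2 fold change -0.49, edgeR adjusted p = 0.74), while Krt1 was higher with overlap (log2 fold change 0.94). Mast cell markers, 2 of 6 with a count, summed to 15.6 to 20.5 CPM, nearly all of it from Kit. Endothelial markers, 4 of 5 with a count, summed to 13.5 to 19.8 CPM. Macrophage markers, 7 of 8 of them with a count, summed to 29.3 to 35 CPM in untreated and 33.9 to 36.9 CPM in IL-33 libraries. Cd68 (20 to 24.8 CPM) and Csf1r (9.01 to 11.3 CPM) made up most of that sum, while Adgre1, C1qb, C1qc and Mrc1 reached at most 0.385 CPM in any library. In IL-33 replicate 3, Lyz2 stood at 2.94 CPM and Ctss had 52 deposited counts, both above the other 5 libraries. Adgre1, C1qb, C1qc and the pan-leukocyte marker Ptprc were also highest there, at 16, 9, 17 and 7 deposited counts, while Mrc1 was not. The part of other cells in any member's value was not tested. In such bulk samples, fewer cells of a type and less RNA per cell cannot be told apart.

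**Figure D1:**
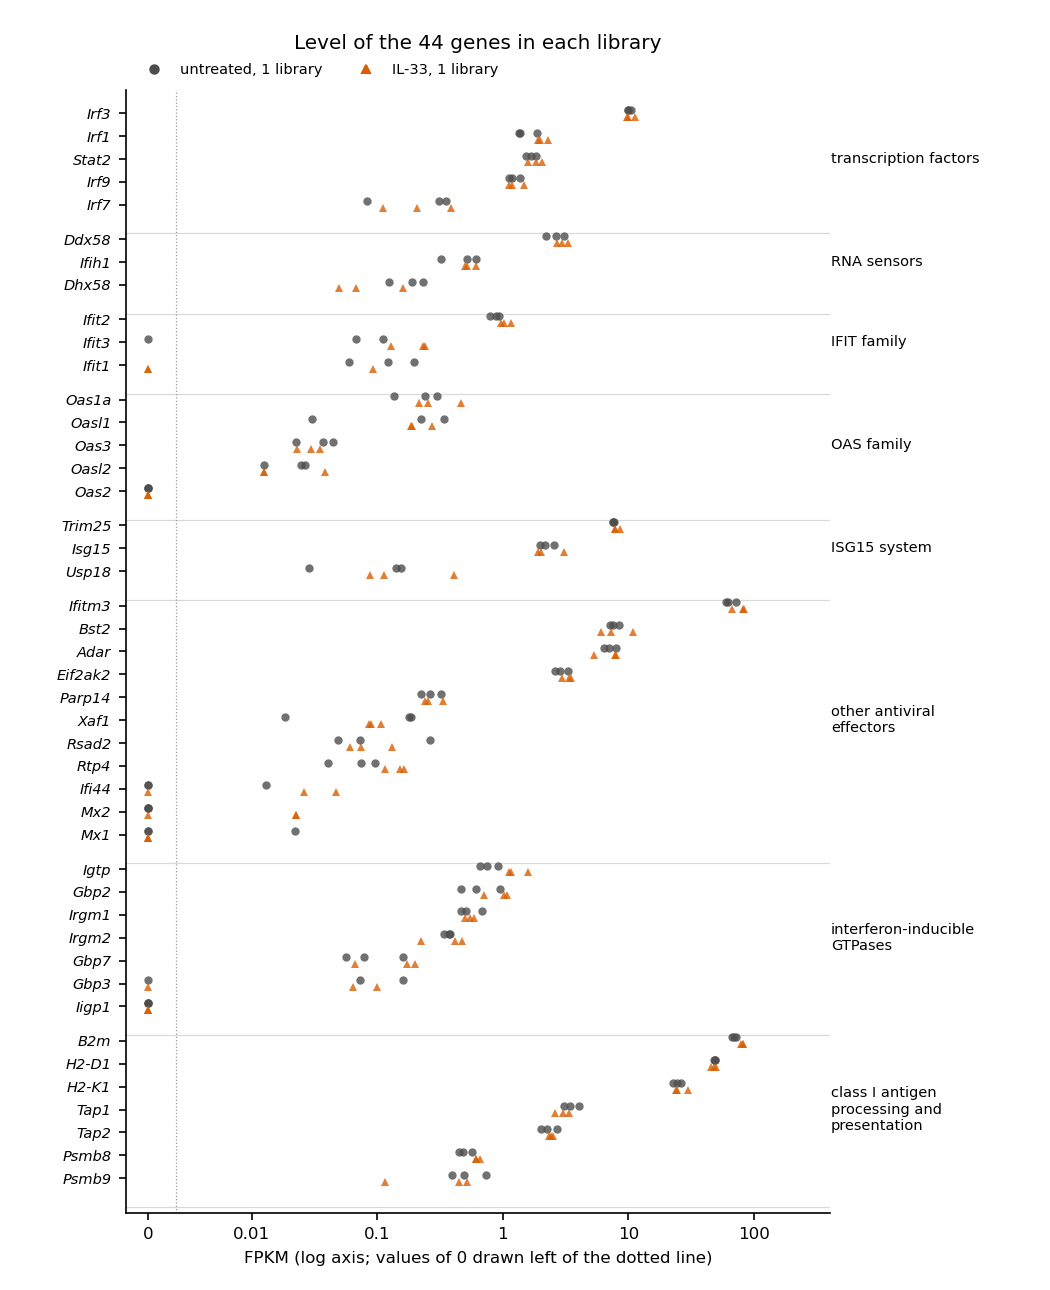
Deposited FPKM (log axis) of each of the 44 genes in the 3 untreated libraries (circles) and the 3 IL-33 libraries (triangles), grouped by role and ordered by mean level. B2m, Ifitm3, H2-D1, H2-K1 and Irf3 have a mean of at least 10 FPKM, 12 genes lie between 1 and 10, and values of 0 are drawn left of the dotted line.

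The response element was looked for in promoter windows from RefSeq (GRCm38.p6), which run from 250 bases before to 50 bases after each gene's start. The windows matched 35 of the 44 members by symbol. The pattern GAAANNGAAA, on either strand, was present in the windows of 19 of these 35 members (54.3%), and in 3.99% of all genes with a window. For windows counted singly it was 19 of 42 in the members (45.2%) and 3.44% of all 32851. A looser core that it contains, GAAANNGAA, was found in 22 of 35 members (62.9%) and 9.76% of all genes. The gamma-activated site pattern TTCNNNGAA was found in 11 members (31.4%) and 9.55% of all genes. All 6 interferon-inducible GTPases with a window held GAAANNGAAA (Gbp2, Gbp3, Gbp7, Igtp, Irgm1 and Irgm2), while in the class I group only B2m did, among 6 with a window. A match describes letters in a window and does not show a binding site in these cells.

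The 6 matched members of highest expression are shown so that the pattern can be read beside their levels, on the strand of the gene, 5′ to 3′, with every base of a match in capitals.
B2m: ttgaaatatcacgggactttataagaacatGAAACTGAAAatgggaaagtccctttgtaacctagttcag
Ifitm3: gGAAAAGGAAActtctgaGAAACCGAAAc
Bst2: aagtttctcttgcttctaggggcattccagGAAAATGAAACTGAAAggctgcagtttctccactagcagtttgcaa
Eif2ak2: agtccgccggGAAAACGAAAcagaagagaa
Ddx58: agTTTCGATTTCctatggccag
Isg15: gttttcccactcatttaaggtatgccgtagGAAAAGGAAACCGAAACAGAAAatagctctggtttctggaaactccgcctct
The B2m stretch is chr2:122147518-122147587 on the plus strand, and its match ends 129 bases before the gene start. Isg15 (chr4:156200845-156200926, minus strand) has 3 overlapping matches, the nearest 56 bases before the start. In Bst2 (chr8:71537557-71537632, minus strand) there are 2 overlapping matches, the nearest 114 bases before the start. The other 3 members have their matches just after the RefSeq start, so only short stretches are shown: Ifitm3 at chr7:141010715-141010743 with 2 matches, Eif2ak2 at chr17:78882535-78882564 and Ddx58 at chr4:40239804-40239825, all on the minus strand. In Ddx58 the pattern reads on the opposite strand. These 6 genes range from 75.1 FPKM (B2m) to 2.29 FPKM (Isg15). Among the members with a window, the median level was 0.548 FPKM with the pattern and 1.1 FPKM without it. The levels of matched members ran from 0.032 FPKM (Oas3) to 75.1 FPKM. The members below Oas3 had either no window or no match.

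Among the transcription factors, Irf3 and Irf1 stood apart in different ways. Irf3 is held inactive in resting cells and is activated by phosphorylation after RNA or DNA sensing. It was the most highly expressed factor at 10.2 FPKM, and its CPM was 39.9, 38.3 and 38.2 in the untreated libraries and 37.5, 43.3 and 38 with IL-33 (log2 fold change 0.03, SE 0.078, edgeR adjusted p = 0.965). The groups overlapped, and the 95% interval of its change was -0.15 to 0.20 on the log2 scale. Irf1, a factor induced by interferon gamma and by NF-kB, was at 6.01, 8.41 and 6.09 CPM untreated and 8.78, 10.2 and 8.56 CPM with IL-33. All 3 IL-33 values exceeded the untreated ones, the nearest pair being untreated replicate 2 and IL-33 replicate 3. The mean went from 6.84 ± 1.36 to 9.17 ± 0.865 CPM (SD, n = 3 per group). The log2 fold change was 0.42 with an SE of 0.17, a 1.34-fold difference with an unadjusted p of 0.0316 (edgeR adjusted p = 0.74).

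Stat2, a subunit of the type I interferon complex, stood at 11, 12.2 and 10.2 CPM untreated and 12.1, 13.6 and 10.6 CPM with IL-33 (log2 fold change 0.12, SE 0.13, edgeR adjusted p = 0.9). Irf9, the DNA-binding subunit of the same complex, was between 6.84 and 8.96 CPM in all 6 libraries. Its exons share 123 bases with Rnf31 on the same strand, so reads from that stretch cannot be assigned with certainty. Irf7, which amplifies interferon alpha production, was the scarcest factor at 0.242 FPKM. Its deposited counts were 17, 56 and 69 untreated and 74, 31 and 22 with IL-33, an overlap across the whole range.

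The 3 RNA sensors were all detected in both groups. Ddx58 encodes RIG-I, a sensor of viral RNA ends, and had the highest level of them at 2.82 FPKM. It was at 24, 17.5 and 20.7 CPM untreated and 21.2, 26.2 and 23.6 CPM with IL-33, with overlap (log2 fold change 0.19, SE 0.13, edgeR adjusted p = 0.814). Ifih1, which encodes the long double-stranded RNA sensor MDA5, was lowest in untreated replicate 1 at 2.93 CPM and lay between 4.53 and 5.64 CPM in the other 5 libraries. Dhx58, encoding LGP2, a relative of both that lacks the signalling domain, was scarce. Its deposited counts were 32, 37 and 21 untreated and 12, 20 and 8 with IL-33, and the highest IL-33 value in CPM (0.587) exceeded the lowest untreated value (0.464). The log2 fold change of -1.01 had a wide SE of 0.6 (edgeR adjusted p = 0.783).

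The IFIT genes encode proteins that bind viral RNA lacking host marks, and they were measured at low levels. Ifit2, the most highly expressed of them at 0.959 FPKM, had 3.49, 4.13 and 3.84 CPM untreated and 5.07, 4.23 and 4.49 CPM with IL-33. The groups did not overlap, though replicate 2 of either group lay close to the other (log2 fold change 0.27, SE 0.18, edgeR adjusted p = 0.809). Ifit1 and Ifit3 exceeded the floor in only 1 group each and are given as deposited counts. Ifit1 had 16, 24 and 8 untreated and 12, 0 and 0 with IL-33. Ifit3 had 0, 9 and 7 untreated and 11, 16 and 21 with IL-33. At this depth of a few fragments no fold is given for either. Ifit3 has a near-identical copy, Ifit3b, with which reads could be split.

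Of the OAS family, whose members make or resemble enzymes making 2-5A, the activator of RNase L, none had a mean above 0.268 FPKM. Oas1a had 23, 26 and 13 deposited counts untreated and 20, 18 and 43 with IL-33 (log2 fold change 0.46, SE 0.54, edgeR adjusted p = 0.904). Oasl1, a translational regulator of Irf7, had 45, 28 and 5 untreated and 25, 19 and 36 with IL-33. Untreated replicate 3 was the lowest for both, and the groups overlapped. Oas3 had 8, 12 and 17 deposited counts untreated and 13, 9 and 9 with IL-33. Oasl2 had 5, 8 and 9 untreated and 12, 4 and 5 with IL-33, at or under the floor, and Oas2 had no count in any library.

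The ISG15 system attaches a ubiquitin-like protein to targets. Isg15, the modifier, was at 1.65, 2.17 and 1.85 CPM untreated and 2.59, 1.7 and 1.63 CPM with IL-33, so that IL-33 held both the highest and the lowest library. Trim25, an E3 ligase for ISG15 and ubiquitin that acts on RIG-I, was the most abundant of the group at 7.84 FPKM. It stood at 48.2, 49.6 and 48.5 CPM untreated and 49.8, 54.7 and 50.1 CPM with IL-33. The groups did not overlap, but the gap between the nearest libraries was smaller than the spread within the IL-33 group (log2 fold change 0.08, SE 0.066, edgeR adjusted p = 0.854). Usp18 removes ISG15 and restrains the interferon receptor. Its counts were 5, 20 and 21 untreated and 58, 14 and 13 with IL-33, and the log2 fold change of 0.94 (SE 0.75, edgeR adjusted p = 0.843) rested on IL-33 replicate 1: without that library it was -0.0058.

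Ifitm3, which blocks the fusion of viruses with endosomal membranes, was the leading antiviral effector at 71.2 FPKM. It was at 46.6, 54.9 and 45.2 CPM untreated and 61.7, 50.6 and 63.1 CPM with IL-33. IL-33 replicate 2 lay within the untreated range, while the other 2 IL-33 libraries lay above it. The mean went from 48.9 ± 5.26 to 58.5 ± 6.88 CPM (SD, n = 3 per group), which is 0.26 on the log2 scale (SE 0.1). The unadjusted p was 0.0349 and the edgeR adjusted p was 0.74.

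The other effectors above 1 FPKM showed overlapping groups. Bst2, or tetherin, holds budding virions at the cell surface and averaged 7.88 FPKM, with its highest value (10.9 CPM) and its lowest (6.05 CPM) both in IL-33 libraries. Adar, the double-stranded RNA deaminase, averaged 7.08 FPKM and was likewise lowest in an IL-33 library, replicate 3 at 48.5 CPM, against 57.7 to 72.1 CPM elsewhere. Its exons overlap Chrnb2 on the opposite strand over 1365 bases, and no source used here says whether the counting used strand. Eif2ak2 encodes PKR, the kinase that halts translation on double-stranded RNA, and was at 16.2, 14.9 and 19 CPM untreated and 19.1, 17 and 19.9 CPM with IL-33.

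Parp14, Xaf1, Rsad2 and Rtp4 averaged 0.107 to 0.272 FPKM. Rsad2, which encodes viperin, had 57 deposited counts in untreated replicate 1 and 10 to 28 in the other 5 libraries. Xaf1, an apoptosis-related gene, had 44, 4 and 46 counts untreated and 20 to 22 with IL-33, so its untreated libraries bracketed all the IL-33 ones. Rtp4 had 12, 4 and 8 deposited counts untreated and 12, 14 and 16 with IL-33; scaled to library size these do not overlap, but only the IL-33 mean exceeded the floor. Mx1, an antiviral dynamin-like GTPase, had 4 deposited counts in untreated replicate 1 and 0 elsewhere. Mx2 had 4 in IL-33 replicates 1 and 3 and 0 elsewhere, and the annotation calls it a polymorphic pseudogene. Ifi44 had 5, 0 and 0 untreated and 16, 0 and 8 with IL-33.

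The interferon-inducible GTPases, which attack the vacuoles of intracellular pathogens, were led by Igtp (also called Irgm3) at 1.03 FPKM. Igtp had 67, 70 and 94 deposited counts untreated and 156, 87 and 117 with IL-33. As CPM these were 1.5, 1.69 and 2.08 untreated and 3.55, 2.55 and 2.65 with IL-33, with no overlap. The mean went from 1.75 ± 0.294 to 2.92 ± 0.549 CPM (SD, n = 3 per group). This 1.66-fold difference (log2 fold change 0.73, SE 0.25) had an unadjusted p of 0.015 and did not pass the correction (edgeR adjusted p = 0.711). Igtp lies on chromosome 11, 58199556 to 58207591, and shares 162 exonic bases with Irgm2 on the same strand, so their counts are not fully separate. Irgm2 itself was at 1.56, 1.57 and 1.41 CPM untreated and 0.91, 1.94 and 1.72 CPM with IL-33, and IL-33 replicate 1, the highest library for Igtp, was the lowest for Irgm2.

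Gbp2, a guanylate-binding protein, had 1.3, 2.66 and 1.72 CPM untreated and 3, 2 and 2.9 CPM with IL-33 (log2 fold change 0.48, SE 0.31, edgeR adjusted p = 0.808). Untreated replicate 2 lay within the IL-33 range, so the groups overlapped. Irgm1, a regulator of the other immunity-related GTPases, was between 3 and 4.47 CPM in all libraries. Gbp7 had 45, 21 and 16 deposited counts untreated and 48, 15 and 56 with IL-33. Gbp3 had 0, 25 and 12 untreated and 0, 9 and 16 with IL-33, with an untreated mean alone above the floor. Iigp1 had no count in any library, and the family thus ran from undetected to about 1 FPKM.

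**Figure D2:**
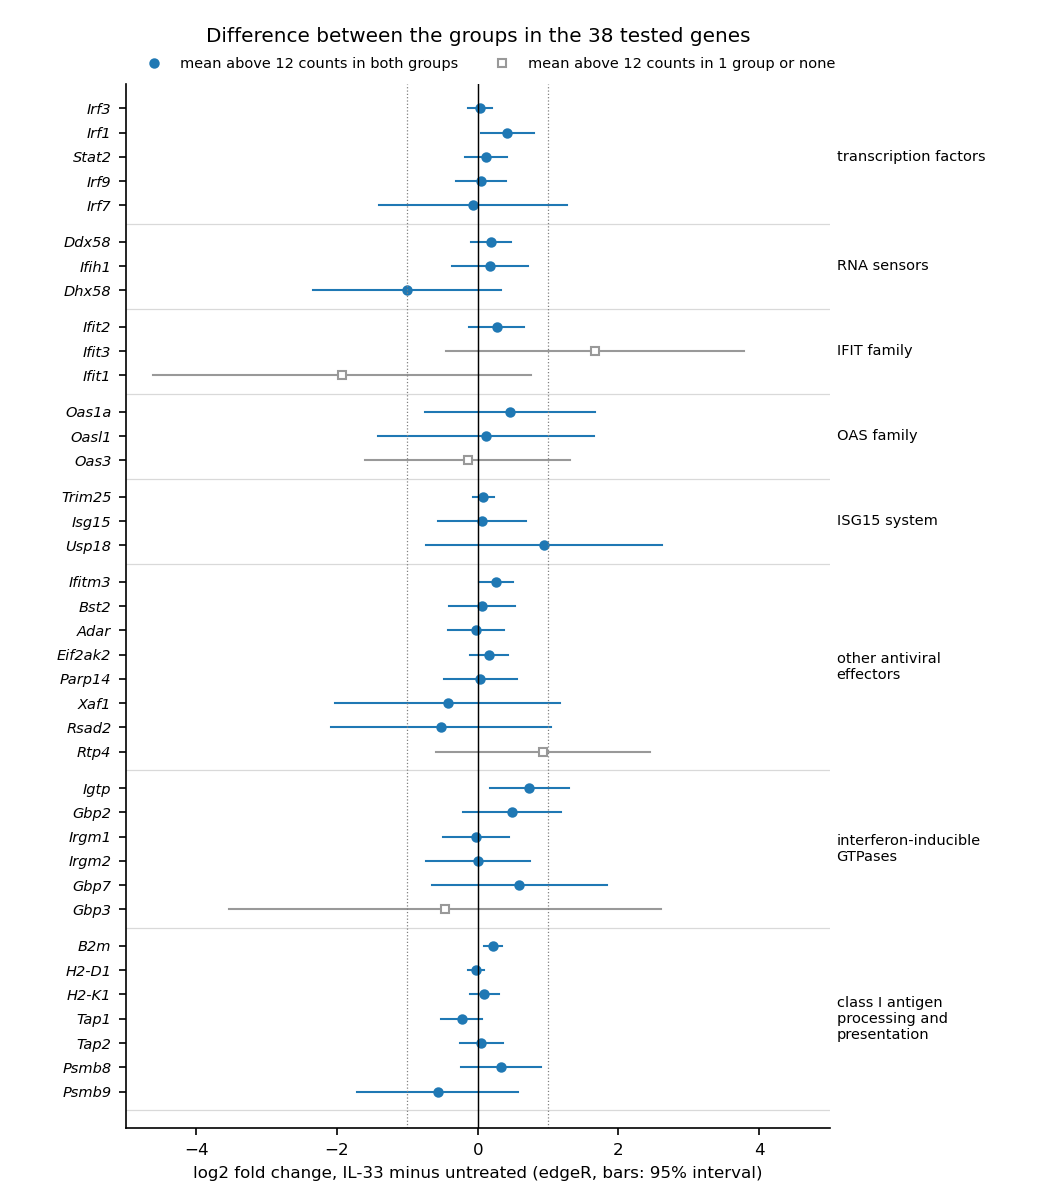
Log2 fold change (IL-33 minus untreated) of the 38 tested members with the 95% interval of edgeR's test, by role; dotted lines mark 2-fold changes. Filled circles have a group mean above the 12-count floor in both groups, open squares do not, and the intervals of B2m, Igtp, Irf1 and Ifitm3 alone exclude 0 while none of the 38 passed the adjusted threshold.

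Class I antigen presentation held the most abundant members. B2m, the light chain shared by all class I molecules, was at 66.5, 64.5 and 68.2 CPM untreated and 75.4, 77.9 and 78.1 CPM with IL-33. Every IL-33 library exceeded every untreated library, and the values within each group differed by less than the gap between the groups. The mean went from 66.4 ± 1.81 to 77.2 ± 1.5 CPM (SD, n = 3 per group), a 1.16-fold difference. The log2 fold change of 0.22 (SE 0.056) had a 95% interval of 0.09 to 0.34 and an unadjusted p of 0.00339, and it did not pass the correction over all genes (edgeR adjusted p = 0.509). B2m lies on chromosome 2, 122147686 to 122153083 (GRCm38), and overlaps no other annotated gene.

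The heavy chains that pair with B2m did not differ beyond their spread. H2-D1 was at 140, 142 and 138 CPM untreated and 144, 130 and 139 CPM with IL-33, and its 95% interval ran from -0.14 to 0.09 on the log2 scale. H2-K1 was at 65.6, 76 and 71 CPM untreated and 86.1, 69.1 and 71.7 CPM with IL-33, and its interval ran from -0.11 to 0.30. Class I heavy chains are near-identical in sequence, so the split of reads between H2-K1, H2-D1 and their relatives is uncertain.

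Tap1 and Tap2 form the transporter that carries peptides into the endoplasmic reticulum. Tap1 was at 21, 24.8 and 18.8 CPM untreated and 16, 20.7 and 18.4 CPM with IL-33 with overlapping groups (log2 fold change -0.23, SE 0.13, edgeR adjusted p = 0.777). Tap2 was between 8.55 and 11.3 CPM in all libraries. Psmb8 and Psmb9 are catalytic subunits of the immunoproteasome, which replace their standard counterparts under interferon. Psmb8 had 1.48, 1.74 and 1.37 CPM untreated and 1.86, 1.91 and 1.99 CPM with IL-33, without overlap (log2 fold change 0.33, SE 0.25, edgeR adjusted p = 0.837). Psmb9 was lowest in IL-33 replicate 3 at 0.498 CPM and lay between 1.64 and 3.02 CPM in the other 5 libraries. It shares 212 exonic bases with Tap1 on the opposite strand.

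Standard proteasome subunits far exceeded the inducible ones. Psmb5, the standard counterpart of Psmb8, averaged 152 FPKM against 0.564 FPKM for Psmb8, a ratio of 263 to 358 across the untreated and 236 to 261 across the IL-33 libraries. Psmb6 averaged 68.2 FPKM against 0.45 FPKM for its counterpart Psmb9, and this ratio overlapped, at 89.3 to 196 untreated and 123 to 578 with IL-33. Psmb10, the third inducible subunit and no member of the set, was more abundant at 3 FPKM, with Psmb7 over Psmb10 at 19.8 to 21.6 untreated and 12.8 to 17.5 with IL-33. In CPM, Psmb10 was 5.09, 4.83 and 4.92 untreated and 5.87, 5.7 and 8.18 with IL-33, without overlap and with IL-33 replicate 3 highest (log2 fold change 0.41, unadjusted p 0.0456, edgeR adjusted p = 0.74).

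**Figure D3:**
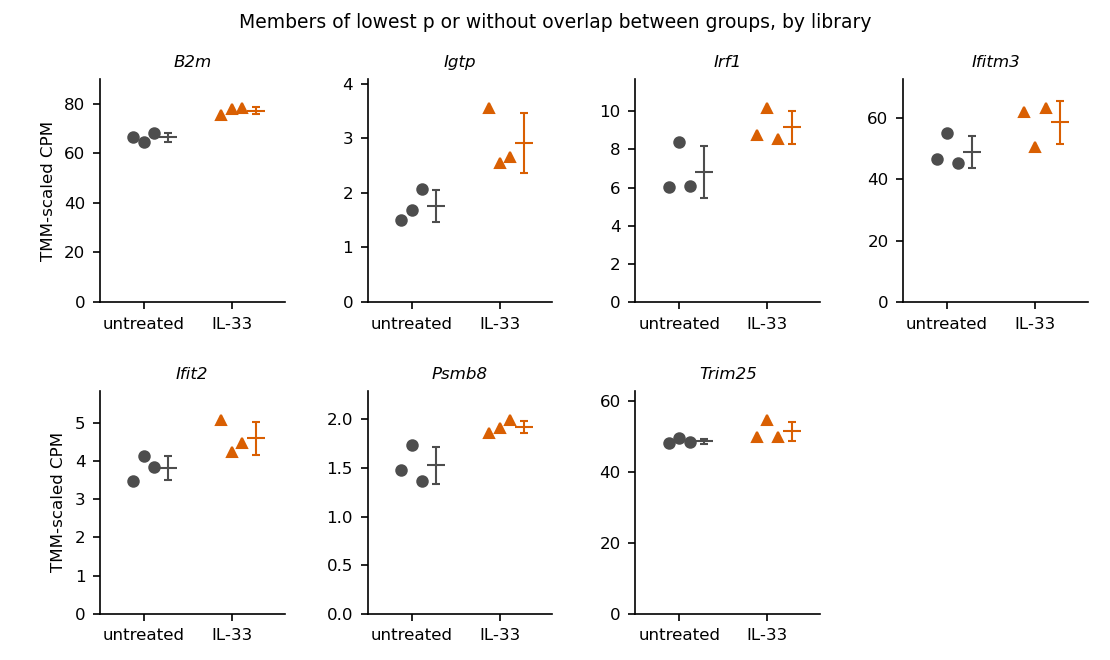
TMM-scaled CPM per library (linear axes from 0) of the 7 members above the floor in both groups that had an unadjusted p under 0.05 or no overlap between groups; bars give mean ± SD of 3 libraries. In 6 of the 7 the IL-33 libraries all lie above the untreated ones, by a small margin in Trim25, Irf1 and Ifit2, and in Ifitm3 IL-33 replicate 2 falls among the untreated values.

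The precision of the fold changes differed across the set. Of the 17 members at a mean of at least 1 FPKM, 16 had a 95% interval that stayed within a 2-fold change in either direction, Igtp being the exception. The 4 members with an unadjusted p under 0.05 were all among these 17, of which 14 had a log2 fold change above 0. Neither count was made over all tested genes of that level, so neither can be read as a trait of the members. Of the 27 members below 1 FPKM, 21 were tested, 12 of them above 0, and only 6 had an interval within a 2-fold change. For most of them the interval reached past a 2-fold change, so such a change could not be told from none. Members of like counts also differed in precision, with an SE of 0.5 for Psmb9 and 0.25 for Psmb8. Among the 33 tested members above the floor in both groups, the highest of the 6 values fell in IL-33 replicate 1 for 10 members, in IL-33 replicates 2 and 3 for 7 each, and in untreated replicates 1, 2 and 3 for 2, 3 and 4. The same split was not counted over all tested genes, so it cannot be read as a trait of the members.

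No transcript of a member passed the test either. The annotation lists 210 deposited transcripts of the 44 genes, of which 63 were tested. None changed at an adjusted p under 0.05 (edgeR), where 0.0299% of all tested transcripts did. Of all tested transcripts 4.24% had an unadjusted p under 0.05, and a close share, 3 of the 63, did among the members' transcripts. These were B2m-201, which carried all B2m counts (log2 fold change 0.21, unadjusted p 0.00675 in edgeR), H2-K1-203 and Irgm2-203. H2-K1-203, a retained-intron form, had 49, 17 and 54 deposited counts untreated and 156, 316 and 110 with IL-33. Irgm2-203, a coding form, had 0, 2 and 5 untreated and 40, 66 and 19 with IL-33, while Irgm2-202 had 70, 32 and 21 untreated and 0, 0 and 57 with IL-33. The untreated counts of Irgm2-203 lay under the floor, so its passing of the filter leaned on the group where it is high. Its p is thus no independent observation, although the count of 3 includes it. The division of reads between such forms moved between libraries of a group. Of the 28 members above the floor in every library, 11 had a different leading transcript in different libraries, Adar among them. Adar-203, which encodes 1178 codons, had 1046 to 1518 deposited counts in 5 libraries and 0 in IL-33 replicate 2, where Adar-202, of 930 codons, had 2317 counts against 851 to 1573 elsewhere.

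The rest of the pathway was read from lists chosen with the members. Of 14 interferon ligand genes, none passed the filter and 12 were listed at 0 in all 6 libraries, including Ifnb1, Ifng and Ifnk, the interferon kappa of keratinocytes. For each library a count of 0 allows at most 0.265 to 0.351 CPM. The 2 ligands with any count, Ifnz and Ifnab, stayed at 7 deposited counts or fewer.

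All 13 receptor and signalling genes were tested and expressed at 1.52 FPKM or more. At an adjusted p under 0.05, 0 were called (edgeR), where 0.0697% of all tested genes were. With so low a share, a count of 0 in this or the following lists is no trait of the list. Jak1, the kinase shared by these receptors, was the highest at 24 FPKM, with 193, 187 and 185 CPM untreated and 196, 200 and 198 CPM with IL-33, without overlap (log2 fold change 0.07, edgeR adjusted p = 0.773). The lambda receptor chain Ifnlr1 and the kinase Tyk2 followed it in p, Ifnlr1 with a log2 fold change of -0.24 and Tyk2 with 0.13 (edgeR adjusted p = 0.812 and 0.854). The receptor chains Ifngr2 and Ifnar1 stood at 10.2 and 7.6 FPKM. The 95% interval lay within 2-fold for all 13.

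Of 15 genes of sensing upstream of interferon 11 were tested and 0 were called (edgeR). Mavs, the mitochondrial adaptor below RIG-I and MDA5, was the highest at 9.74 FPKM. Tbk1, the kinase that phosphorylates Irf3, had the smallest p, with 35.5, 32.5 and 34.5 CPM untreated and 36.6, 35.6 and 39.6 CPM with IL-33 (log2 fold change 0.13, edgeR adjusted p = 0.796). Its groups did not overlap, while Ikbke, its relative, and Mb21d1, which encodes the DNA sensor cGAS, both overlapped (edgeR adjusted p = 0.808 and 0.841).

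Among 50 further interferon-stimulated genes, 25 were tested and 0 were called (edgeR). Ifitm2, a relative of Ifitm3, was the highest of them at 132 FPKM, and with 95.1, 105 and 86.9 CPM untreated and 95.1, 96.2 and 99.2 CPM with IL-33 it overlapped. Only Ifi204, a DNA-binding protein of the p200 family, had an unadjusted p under 0.05. Its deposited counts were 17, 8 and 5 untreated and 19, 25 and 43 with IL-33 (unadjusted p 0.0277, edgeR adjusted p = 0.74), with an untreated mean under the floor. Passing the filter thus leaned on the group where Ifi204 is high, so its p is no independent observation. Next in p were Lgals3bp, lower at a log2 fold change of -0.59, and Parp12, higher at 0.20 (edgeR adjusted p = 0.763 for both).

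Of 23 further class I genes 19 were tested and 0 were called (edgeR). The chaperone Calr was the highest at 163 FPKM. At an unadjusted p under 0.05 stood Psmb10, described above, and Canx, the chaperone that holds free heavy chains. Canx was at 419, 397 and 424 CPM untreated and 366, 364 and 401 CPM with IL-33 (log2 fold change -0.13, unadjusted p 0.022, edgeR adjusted p = 0.74), and IL-33 replicate 3 lay within the untreated range. Pdia3, which joins Calr in peptide loading, came next at a log2 fold change of -0.08 (edgeR adjusted p = 0.777). The 3 standard proteasome genes did not pass the test.

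Class II genes, which professional antigen-presenting cells express, were near the floor. Of 11 genes 4 were tested, and the highest, H2-DMb1, averaged 0.74 FPKM with overlapping groups. H2-Eb1, a class II chain, had 19, 6 and 28 deposited counts untreated and 10, 10 and 4 with IL-33, and H2-Ab1 had 19, 24 and 24 untreated and 0, 0 and 29 with IL-33 (edgeR adjusted p = 0.842 and 0.898). H2-Aa was at 0 in all libraries, and Cd74, the invariant chain, had 4 deposited counts in untreated replicate 3 and 0 elsewhere. Over the 75 tested genes of all these lists 43 log2 fold changes were above 0 (57.3%, against 50.5% of all tested genes). In 6 (8%, against 7.39% of all tested genes) all IL-33 libraries lay above the untreated ones. The opposite order was found in 2, and in 6.26% of all tested genes. Ifi204 is among the 6, and its order is no independent observation, for the reason given above.

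**Figure D4:**
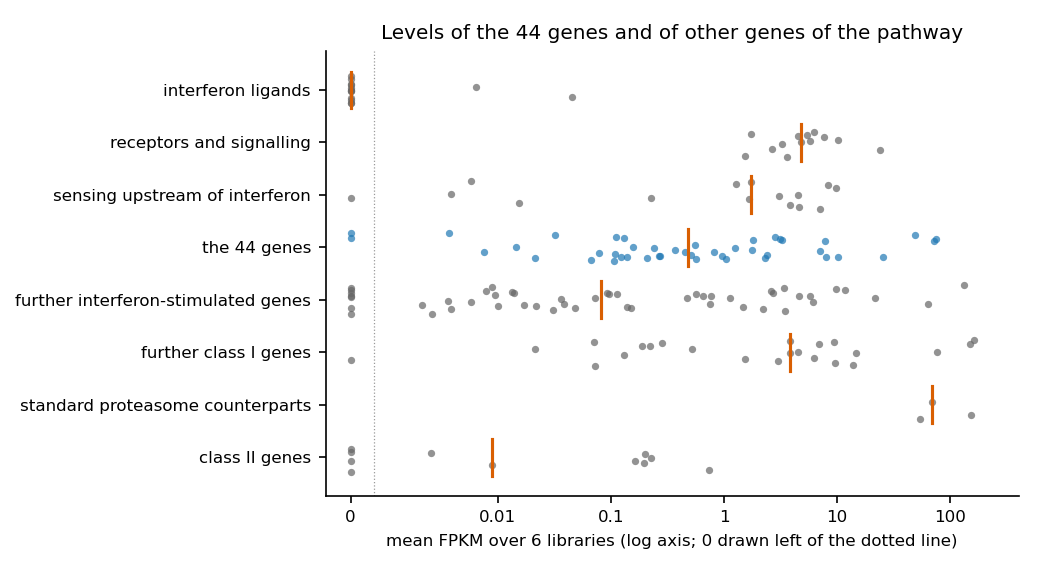
Mean FPKM over the 6 libraries (log axis) of the 44 genes and of the other lists of the pathway, with 1 point per gene and the list median as a bar; values of 0 are left of the dotted line. Receptors and signalling genes lie at 1.52 to 24 FPKM, 12 of 14 interferon ligand genes are at 0, and the 44 genes range from 0 to 75.1 FPKM with a median of 0.482.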

How the data were processed

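RNA was measured in 6 libraries, 3 per group, made with an mRNA-seq kit per the labels' protocols. Per the submitters' processing notes the build was mm10 and the tools were StringTie 1.3.4d, HISAT2 2.1.0, DESeq2 1.18.1 and FastQC 0.11.7, with no roles. No annotation release is stated. The authors deposited estimated counts, which are whole numbers and were not rounded further, and FPKM for genes and transcripts. Low deposited counts pile up at multiples of 4, so the scale of 1 fragment is an estimate.

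Symbols were assigned to 52403 of 52550 Ensembl identifiers, and positions are those of GENCODE M21 (97.19% of transcript identifiers have the same version there), which may not be the authors' release. Differences were tested with edgeR 4.0.16 (quasi-likelihood, robust, TMM factors, filterByExpr at a minimum count of 10) in R 4.3.3, for IL-33 against untreated, with Benjamini-Hochberg adjustment over all 15778 genes or, for transcripts, all transcripts tested. The members and all lists were chosen with earlier results of these data known. Named with values in every library were the member of highest FPKM and the 2 of smallest p in each role group, every member with an unadjusted p under 0.05 or groups without overlap, and those under the filter or floor. From each other list came the highest gene and up to 3 of smallest p.

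On counts simulated from the library means and dispersions (15778 genes, 50 changed genes per fold size), the test recovered 44% of 1.5-fold, 80% of 2-fold, 94% of 3-fold and 84% of 4-fold changes. The changed genes were drawn only from those with a mean above 40 deposited counts per library. These shares therefore do not cover scarcer members such as Dhx58, Oas1a, Usp18 and Ifit3. At the assumed 4 deposited counts per fragment, every pair of libraries differed beyond sampling noise (median chi-square 1.88 to 2.74 times its expected value). On that assumption none was counted as a copy. Alternatives were other scaling, DESeq2 1.42.0, limma-voom (limma 3.58.1), other filters, limma on log2 FPKM, counts divided by 4, the replicate number as a block and each library left out.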

Additional observations from a re-analysis of the deposited data

How the results depend on the processing

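No member was called in any of the 17 alternative settings or at an adjusted p under 0.1, and the lowest adjusted p of a named member was 0.212 (B2m, DESeq2). The number of members with an unadjusted p under 0.05 was 4 in edgeR, 6 with limma-voom, and 2 to 5 with each library left out. The count was 2 without IL-33 replicate 1 and also without untreated replicate 1. The median log2 fold change of the tested members ran from 0.086 to 0.126 with each library left out, being 0.126 without untreated replicate 2 and 0.122 without IL-33 replicate 3, and from 0.06 to 0.088 in the other settings. The cause of these shifts was not tested. The count of members with all IL-33 libraries above the untreated ones, 8, was also 8 with deposited FPKM, and 8 to 12 with each library left out (both chosen after seeing the data). Leaving a library out keeps every such order and can only add to the count. The range of 8 to 12 is therefore no check of it, and the same counts were not made over all tested genes. Of the 249 alternative values of the 15 members named with a fold change, 247 kept their direction. The exceptions were Irf3, at -0.041 without IL-33 replicate 2 (up to 0.065 with another library left out), and Usp18, at -0.0058 without IL-33 replicate 1 (up to 1.302). Over all genes the calls went from 11 to 71 with DESeq2, which was run on 23479 genes without the filter of the main test, to 90 without IL-33 replicate 3, to 8 with the block and to 4 with limma on FPKM, none of them a member. With the replicate number as a replicate block, 3 members had an unadjusted p under 0.05, 0 were called and the median was 0.069. Same-numbered libraries did not deviate together (correlations 0.0309, -0.00453 and -0.0231 over 15778 genes), so the numbers were not taken as pairs. Intervals were widest among the members below 1 FPKM, and the parts of depth and of spread between libraries in this were not separated.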
